A study of Mus musculus with 222 samples.

Results

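Mammary tumors that arose in F1 mice carrying the MMTV-ErbB2 transgene were compared with mammary glands of wild type F1 mice. The members were chosen by label and name: 6 tumors of the F1 background whose names begin with F1_ (F1_22T1, F1_24T1, F1_25T1, F1_26T1, F1_27T1 and F1_6T1) and 3 F1 wild type glands, together 9 of the 222 arrays of the series. All 9 samples came from C57BL/6 by FVB/N F1 mice. The tumors carried the ErbB2 protooncogene under the long terminal repeat of the mouse mammary tumor virus, a promoter active mainly in mammary epithelium, and the wild type glands carried no transgene. A group of 2 glands from F1 MMTV-ErbB2 mice was placed beside them as a description. Age, reproductive state and the way the glands were collected were not stated, and the labels do not say that each gland came from a separate animal, so p-values measure only the spread between these samples.

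The ERBB2 protein is a receptor tyrosine kinase with no known ligand of its own. It signals in pairs with other members of its family, chiefly ERBB3, which recruits PI3 kinase, and it also feeds the RAS and ERK cascade, whose readily measured outputs include the ETS factors Etv1, Etv4 and Etv5 and the feedback inhibitors of the Dusp and Spry families. A mammary gland holds milk-producing and hormone-sensing luminal cells and a basal layer of contractile myoepithelial cells, set in fat, vessels, fibroblasts and leukocytes. Tumors of MMTV-ErbB2 mice are largely luminal in character.

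Total RNA was measured on Affymetrix mouse gene arrays, and every value here is a log2 signal after RMA, so that a difference of 1 is a 2-fold difference in signal. Signals of different genes are not compared as amounts of RNA. All 9 arrays belonged to the narrow of 2 sets into which the series divided by spread of values. The interquartile range was 2.43 to 2.57 in the tumors and 2.20 to 2.33 in the wild type glands, without overlap, and its part in the results below was tested by quantile normalization only. Keratins Krt8 and Krt18 and the epithelial adhesion molecule Epcam were high in both groups. Epcam measured 11.90 to 12.52 in the tumors and 12.14 to 12.49 in the wild type glands, so epithelial signal was high in each array. Adipoq, the defining hormone of fat cells, measured 5.47 to 5.88 in the wild type glands, and Csn2, a casein of milk, measured 13.95 to 14.05 there. In bulk tissue, fewer cells of a type and less RNA per cell cannot be told apart.

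A probe set was called when limma's false discovery rate was 0.005 or less and the fold 2 or more. By this rule 3608 of 35556 probe sets (10.1%) were called, 2199 higher and 1409 lower in the tumors. Over the 19938 genes with a probe set of their own, 1504 (7.54%) were called higher and 820 (4.11%) lower. The median log2 difference over all genes was -0.06. Every tumor was above every wild type gland in 5680 of the 35556 probe sets and below every one in 5906. Separation of the groups was therefore common. Counts of list genes and separations given below are to be read beside these numbers. Leaving out wild type gland 3 reduced the calls to 2288, with 1317 higher and 971 lower, and leaving out any single tumor other than F1_26T1 gave 3238 to 3617.

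Erbb2 itself was 12.1-fold higher in the tumors. Its signal was 12.35, 12.31, 12.44, 9.72, 12.04 and 12.53 in F1_22T1, F1_24T1, F1_25T1, F1_26T1, F1_27T1 and F1_6T1, against 8.26, 8.30 and 8.35 in the wild type glands. The groups did not overlap, but F1_26T1 lay 2.32 or more below every other tumor. In the F1 MMTV-ErbB2 glands Erbb2 measured 9.78 and 10.48, so that F1_26T1 was just below the lower transgenic gland. The log2 difference was 3.59 ± 0.54 (SE, n = 6 and 3, limma adjusted p = 0.000697). It was 4.03 without F1_26T1, a value given with no test, since that tumor was left out for its low Erbb2. Without wild type gland 3 the difference was 3.62 and the adjusted p was 0.005038, just outside the threshold. The probe set does not separate the transgene from the mouse gene. Grb7, the neighbour of Erbb2 that is co-amplified with it in human tumors, averaged 8.99 ± 0.19 in the tumors and 8.61 ± 0.37 in the wild type glands (SD, adjusted p = 0.114).

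**Figure D1:**
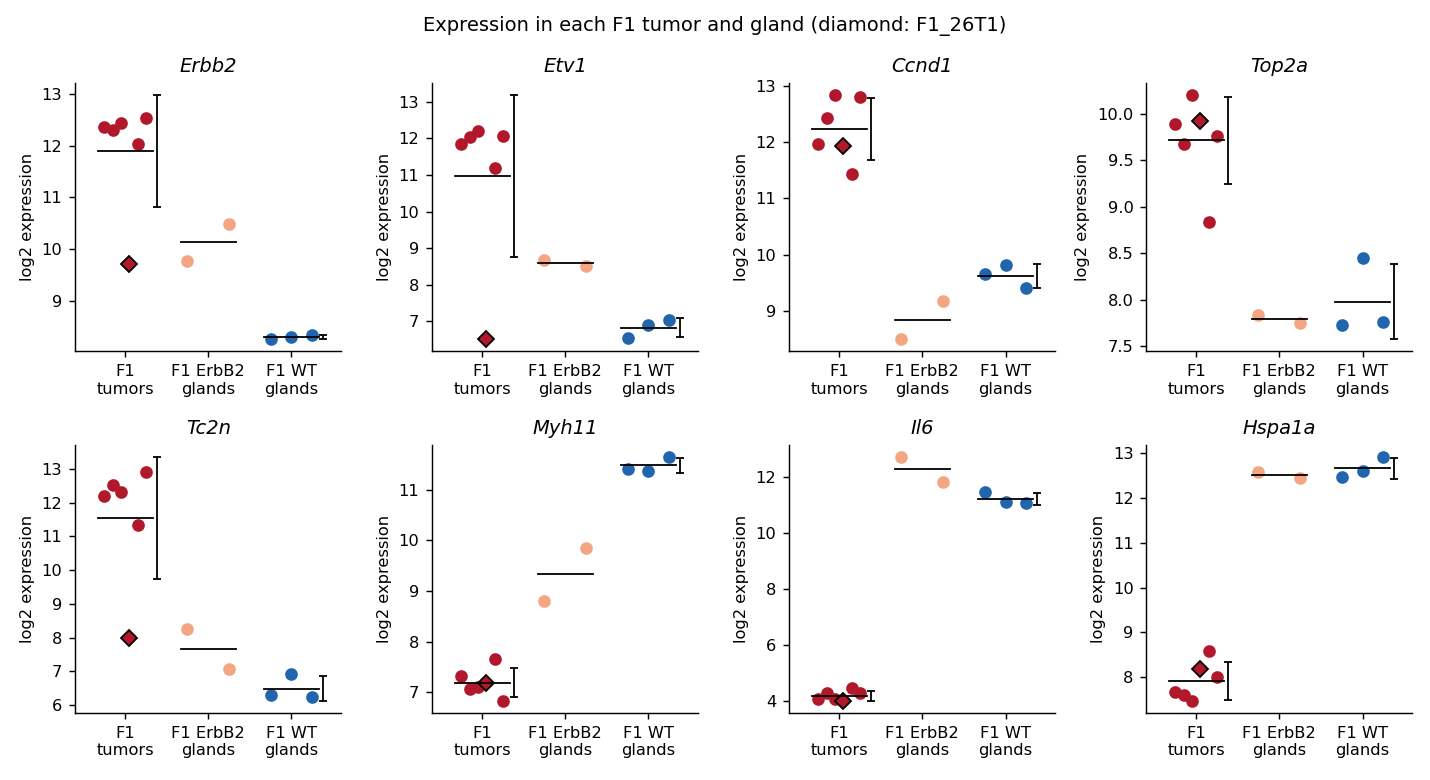
Log2 RMA signal (vertical axis) of 8 genes in each array, in the columns tumors, F1 MMTV-ErbB2 glands and wild type glands; the line is the group mean, the bar the SD and the diamond F1_26T1. F1_26T1 sits at 9.72 for Erbb2 and 6.51 for Etv1, away from the other tumors, and close to them for Ccnd1, Top2a, Il6 and Hspa1a.

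Of the 4 ERBB receptors, listed with Grb7, 2 were called higher and none lower. Beside Erbb2 this was Erbb3, the kinase-impaired partner of ERBB2, which measured 11.12 to 11.78 in the tumors and 9.91 to 10.87 in the wild type glands (log2 difference 1.12, adjusted p = 0.00203). Every tumor was above every gland. This call was lost without F1_24T1 or without wild type gland 1 or 3. Egfr ran the other way, at 9.29 to 9.88 in the tumors and 10.31 to 10.81 in the wild type glands, a difference of -0.80 that passed the test (adjusted p = 0.00372) but not the 2-fold limit. Among 10 ligands of the EGF and neuregulin family that were measured, Hbegf alone was called, and lower, beside 4.11% of all genes. This heparin-binding ligand of EGFR averaged 7.71 ± 0.49 in the tumors and 9.92 ± 0.15 in the wild type glands (log2 difference -2.20, adjusted p = 0.000166).

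Some of the transcripts that report ERK activity set F1_26T1 apart from the other tumors. Of 14, only Ccnd1 was called higher and Fosl1 lower over all 6 tumors, and the median difference was 0.24. Over all genes 7.54% were called higher and 4.11% lower. Etv1, an ETS factor, measured 11.85, 12.04, 12.20, 6.51, 11.20 and 12.05 in F1_22T1, F1_24T1, F1_25T1, F1_26T1, F1_27T1 and F1_6T1, against 6.55, 6.89 and 7.05 in the wild type glands. F1_26T1 was below the lowest wild type gland and the other 5 tumors stood at least 4.15 above the highest. The difference was 4.15 over 6 tumors, outside the threshold (adjusted p = 0.0152), and 5.04 over the 5 others, inside it (adjusted p = 2.31e-06). Etv5, a second ETS factor, measured 6.91 in F1_26T1 and 9.72 to 11.45 in the other tumors, against 7.05 to 7.27 in the wild type glands. Dusp6, the phosphatase that inactivates ERK, measured 8.40 in F1_26T1 and 11.26 to 12.72 in the others, against 9.50 to 9.87 in the wild type glands. Without F1_26T1 both were called higher. The ERK inhibitor Spry4 was lowest in F1_26T1 as well, at 6.74, but was not called with or without it (adjusted p = 0.603 and 0.0779). Dusp4, another phosphatase of the list, ran the other way, at 10.18 in F1_26T1 and 7.68 to 8.93 in the other tumors, against 8.93 to 9.19 in the wild type glands. F1_26T1 lay inside the range of the other tumors for Etv4, Dusp5, Spry1, Phlda1 and Ccnd1. It was the lowest tumor for Spred1, Spred2 and Spry2. Dusp5, Spry1 and Spry2 were below every wild type gland in all 6 tumors, with differences of -1.28, -0.87 and -1.27. That order held for 5906 of all 35556 probe sets. None of these 3 genes was called with or without F1_26T1.

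Ccnd1, the cyclin which drives entry into the cell cycle with CDK4 and CDK6, measured 11.42 to 12.84 in the tumors, with F1_26T1 at 11.92, and 9.40 to 9.81 in the wild type glands. The groups were separate by more than their spread (6.08-fold, SE of the log2 difference 0.29, adjusted p = 0.000132). Its kinase Cdk4 rose with it, at 11.59 ± 0.16 in the tumors and 10.37 ± 0.30 in the wild type glands (adjusted p = 0.000205). Cdkn2c, an inhibitor of CDK4, was also higher (8.31 ± 0.54 and 6.58 ± 0.09), a call lost when any single gland was left out. No other gene of the 11 D cyclins and inhibitors was called over 6 tumors. Without F1_26T1, Ccnd2, another D cyclin, was called lower (log2 difference -1.61, adjusted p = 0.00429).

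In the PI3K, AKT, mTOR and ERK components, 2 of 16 genes were called, both higher and both close to the 2-fold limit. Over all genes 7.54% were called higher. Pik3r1, the regulatory subunit of PI3 kinase, averaged 11.77 ± 0.25 in the tumors and 10.75 ± 0.12 in the wild type glands. Akt1, the kinase downstream of it, averaged 10.54 ± 0.25 in the tumors and 9.52 ± 0.22 in the wild type glands. Each had a difference of 1.02 (adjusted p = 0.000776 and 0.0011) and lost the call under several of the left-out fits.

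Of the 30 gene lists, proliferation had the most genes called higher. All 19 measured had a positive difference, 11 were called higher and none lower, with a median difference of 1.21 against -0.06 over all genes. Rrm2, a subunit of ribonucleotide reductase, measured 8.96, 10.16, 11.25, 9.79, 8.90 and 10.13 in the tumors in the order above, against 6.75, 7.04 and 6.69 in the wild type glands. Every tumor stood at least 1.86 above every gland (log2 difference 3.04, adjusted p = 0.000588). Ccna2, the S and G2 phase cyclin, was 2.22 higher and Plk1, a mitotic kinase, 1.93 higher (adjusted p = 7.44e-05 and 0.000101). Top2a, the topoisomerase of dividing cells, averaged 9.71 ± 0.47 in the tumors and 7.98 ± 0.41 in the wild type glands. Mki67 averaged 10.00 ± 0.47 in the tumors and 8.59 ± 0.25 in the wild type glands. F1_27T1 was the lowest tumor for Top2a, Mki67, Ccna2, Plk1, Rrm2 and Bub1, a spindle checkpoint kinase, yet it remained above every wild type gland for each. F1_26T1 was inside the range of the other tumors for Top2a, Mki67, Ccna2, Rrm2 and Bub1. The calls of Top2a and Mki67 were lost without wild type gland 1 or 3, and that of Mki67 also without gland 2 or F1_22T1.

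**Figure D2:**
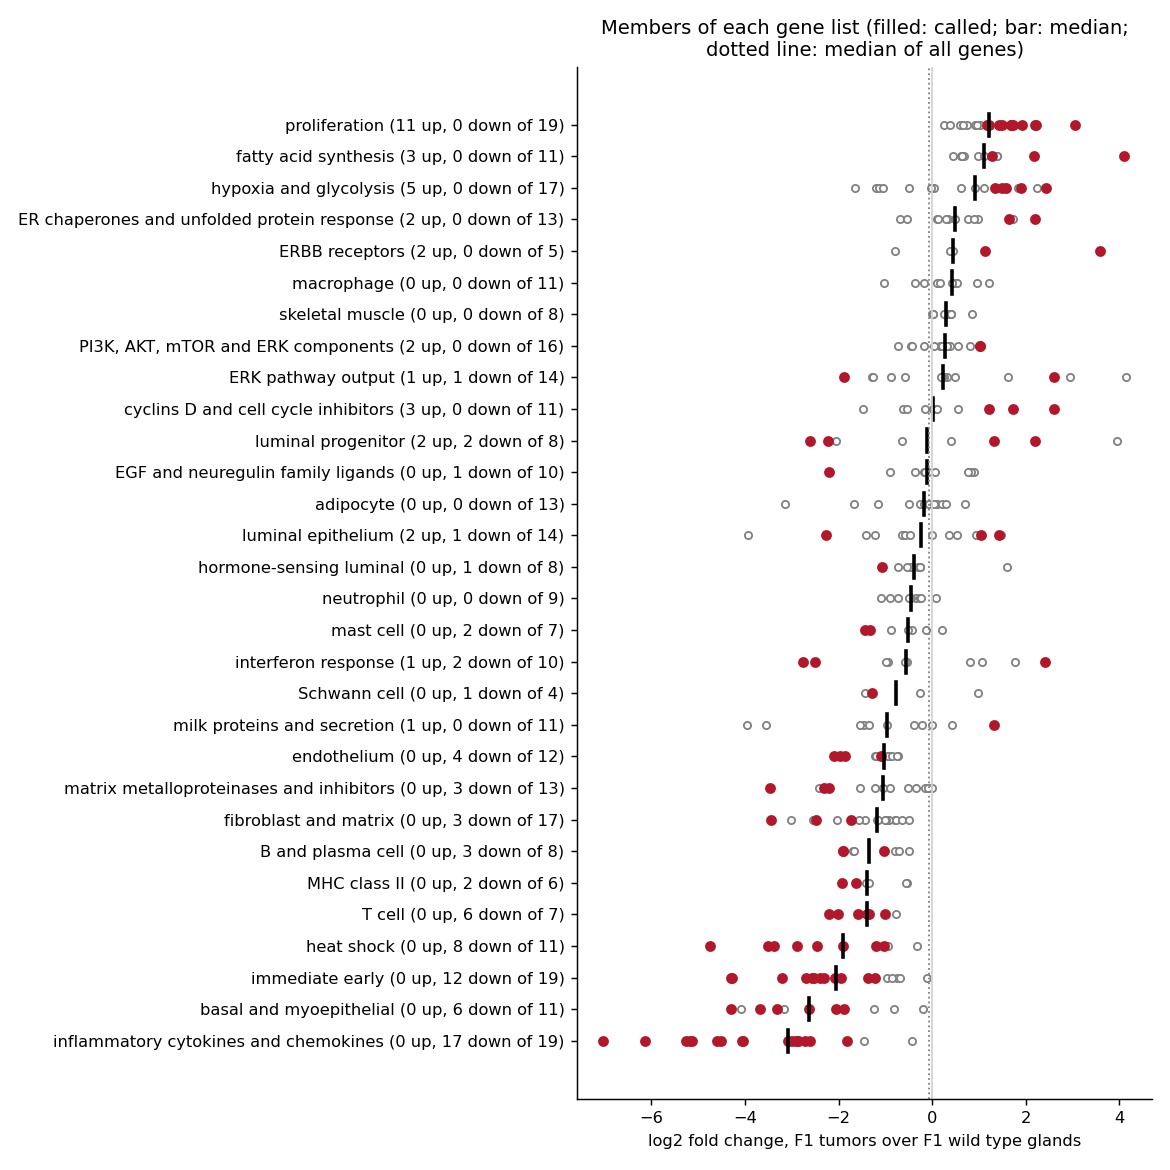
Log2 difference of tumors minus wild type glands (horizontal axis) for each measured gene of each list (rows); filled points were called, the bar is the list median and the dotted line the median of all genes, -0.06. The inflammatory list has 17 of 19 genes called lower and the proliferation list 11 of 19 called higher.

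The genes with the largest increases were not those of the cell cycle. Tc2n, a protein with tandem C2 domains, measured 12.19, 12.51, 12.32, 7.99, 11.35 and 12.91 in the tumors, against 6.30, 6.90 and 6.24 in the wild type glands. F1_26T1 was again the low tumor, still above the glands, and the mean difference of 5.07 (adjusted p = 0.00191) fell outside the threshold whenever a gland was left out. Clic6, of the chloride intracellular channel family, showed the same order, with 8.47 in F1_26T1 and 11.85 to 12.76 in the other tumors, against 6.57 to 8.67 in the wild type glands, so that F1_26T1 overlapped them. Its difference was 4.27 (adjusted p = 0.00357). Car12, a membrane carbonic anhydrase, was more even, at 10.46 to 11.99 in the tumors and 7.20 to 7.63 in the wild type glands (difference 4.05, adjusted p = 1.12e-05). Lrrc26, an auxiliary subunit of a potassium channel, rose by 3.73, and Epha7, an ephrin receptor, by 3.38. Arg1, the arginase that makes ornithine, rose by 3.21 and was 9.16 to 11.97 in the tumors and 7.21 to 7.44 in the wild type glands. The zinc finger genes Zfp971 and Zfp825 rose by 3.51 and 3.50, and the unannotated transcript BC006965 by 3.50. Lrrc26 lost the call without any 1 gland, Arg1 without gland 1 or 3, and Clic6 and Epha7 in 7 of the 9 fits that left out an array.

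Lipid and glucose metabolism contributed 8 calls, all higher. Each of 11 genes of fatty acid synthesis had a positive difference (median 1.11) and 3 were called. Scd2, a desaturase that makes monounsaturated fatty acids, measured 12.34, 12.90, 12.84, 13.08, 11.67 and 12.05 in the tumors, against 8.02, 8.72 and 8.42 in the wild type glands. No tumor came within 2.95 of a gland (log2 difference 4.09 ± 0.31, adjusted p = 1.55e-05). Srebf1, the transcription factor of this pathway, was 2.17 higher (adjusted p = 0.000162) and Me1, the malic enzyme that supplies NADPH, 1.28 higher (adjusted p = 0.000954), a call lost without wild type gland 1 or 3. Fasn, the synthase itself, was 9.99 to 11.93 in the tumors and 9.32 to 10.34 in the wild type glands, which overlapped (adjusted p = 0.115).

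Of 17 genes of hypoxia and glycolysis, 5 were called, all higher and 4 of them enzymes of glycolysis or its exit to lactate. Ldha, the lactate dehydrogenase of that exit, varied little within groups, at 13.18 to 13.41 in the tumors and 11.70 to 11.91 in the wild type glands (log2 difference 1.49 ± 0.10, adjusted p = 9.62e-06). Aldoa, Pfkl and Tpi1, an aldolase, a phosphofructokinase and triose phosphate isomerase, were 1.35, 1.91 and 1.57 higher, the last not called once any 1 gland was left out. Pdk1, the kinase that closes pyruvate dehydrogenase, was 2.44 higher (adjusted p = 0.000311). Aldoc, a second aldolase found through its size of change, measured 11.56 in F1_26T1 and 13.08 to 13.86 in the other tumors, against 9.04 to 10.44 in the wild type glands. Without F1_26T1, the glucose transporter Slc2a1 and Ndrg1, a gene induced by hypoxia, were called lower (-1.40 and -1.37). In the unfolded protein response list 2 of 13 were called, both higher, beside 7.54% of all genes. They were Xbp1, its transcription factor (difference 2.19, adjusted p = 2.02e-05), and Sdf2l1, an ER protein (1.64, adjusted p = 0.00462; called in 2 of the 9 left-out fits), while the chaperone Hspa5 averaged 12.94 ± 0.34 in the tumors and 12.83 ± 0.11 in the wild type glands (adjusted p = 0.696).

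Genes of the basal epithelial layer were lower in the tumors. In the basal and myoepithelial list all 11 genes had a negative difference and 6 were called lower. Myh11, smooth muscle myosin, measured 7.32, 7.06, 7.11, 7.17, 7.66 and 6.82 in the tumors, against 11.42, 11.38 and 11.65 in the wild type glands. All tumors lay together and at least 3.72 below the glands (log2 difference -4.30 ± 0.17, adjusted p = 7.83e-07). Cnn1, the calponin of contractile cells, was 6.30 to 6.68 in the tumors and 9.71 to 10.01 in the wild type glands, and Mylk, myosin light chain kinase, 7.29 to 8.10 in the tumors and 9.31 to 9.97 in the wild type glands. Acta2, smooth muscle actin, Cdh3, P-cadherin, and Krt17, a basal keratin, were lower as well (log2 differences -2.63, -2.06 and -3.68), with Acta2 and Krt17 losing the call without any 1 gland and Krt17 also without F1_24T1 or F1_27T1.

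The basal keratins Krt5 and Krt14 and the basal factor Trp63 were not called over 6 tumors. Krt14 was 7.43, 6.90, 6.93, 12.01, 7.98 and 6.86 in the tumors, against 12.04, 12.14 and 12.15 in the wild type glands. F1_26T1 reached the level of the glands and the other 5 tumors stayed far below. Krt5 was 12.29 in F1_26T1, above all 3 wild type glands (10.47 to 11.08), and 6.30 to 8.16 in the other tumors. F1_26T1 thus had basal keratins without the contractile genes Myh11 and Cnn1, which measured 7.17 and 6.63 there. Without F1_26T1, 10 of 11 genes of the list were called lower, beside 4.84% of all genes.

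Luminal genes were mixed. Of 14, 2 were called higher and 1 lower, beside 7.54% and 4.11% of all genes. Ehf, an epithelial ETS factor, averaged 11.88 ± 0.38 in the tumors and 10.45 ± 0.25 in the wild type glands, and Cldn3, a tight junction claudin, 11.57 ± 0.20 in the tumors and 10.54 ± 0.48 in the wild type glands. Cldn4, another claudin, was lower (10.87 ± 0.95 in the tumors and 13.15 ± 0.21 in the wild type glands). Each of these calls was lost without wild type gland 1 or 3, and those of the claudins in most fits that left out an array. Krt8 and Krt18, the keratins of luminal cells, differed by -0.57 and -0.47 and were not called. Krt19, another luminal keratin, varied widely among the tumors, at 8.80, 6.12, 6.16, 13.12, 8.99 and 6.03 in the tumors, against 12.04, 12.49 and 11.88 in the wild type glands. F1_26T1 was above the glands and all other tumors at least 2.89 below them.

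In the luminal progenitor list, Kit, the receptor of stem cell factor, was 11.36 to 13.05 in the tumors and 10.01 to 10.48 in the wild type glands (difference 2.20, adjusted p = 0.000678), a call lost without wild type gland 1 or 3. Elf5, the ETS factor of the alveolar lineage, was 1.32 higher, a call lost without F1_26T1 and in most other left-out fits. Tspan8, a tetraspanin, was 7.42 in F1_26T1 and 12.34 to 12.82 in the others, against 7.51 to 8.37 in the wild type glands. Of the 8 genes of this list, the cytokine Lif and the integrin Itga2 were called lower (-2.61 and -2.22). Among 8 genes of hormone-sensing cells only Tnfsf11, the RANK ligand induced by progesterone, was called, beside 4.11% of all genes called lower. Tnfsf11 had a difference of -1.07 and lost the call in 5 of the 9 left-out fits. Milk genes were uneven in the tumors and high in the wild type glands. Wap, whey acidic protein, measured 7.25, 7.37, 6.93, 13.03, 10.83 and 8.28 in the tumors, 8.17 and 8.58 in the F1 MMTV-ErbB2 glands, and 12.86, 13.07 and 12.78 in the wild type glands. Only F1_26T1 reached the wild type level, and the transgenic glands did not. Glycam1, a mucin of milk, was 6.66 to 14.13 in the tumors and 13.61 to 13.93 in the wild type glands. Among the 11 milk genes Xdh alone was called, higher by 1.32 (adjusted p = 0.00314), and it was called in 3 of the 9 left-out fits. The share called higher over all genes was 7.54%.

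Of the 30 lists, that of acute inflammation had the lowest median. Of 19 cytokines, chemokines and their regulators, 17 were called lower, none higher, and the median difference was -3.07 against -0.06 over all genes. Il6, the interleukin of acute inflammation, measured 4.06, 4.30, 4.07, 3.99, 4.45 and 4.28 in the tumors, against 11.48, 11.10 and 11.09 in the wild type glands. The tumors were at the level of the lowest probe sets, whose 5th percentile was 4.11, so that the difference is bounded by the floor of the array (log2 difference -7.03 ± 0.14, adjusted p = 4.74e-09). Cxcl2, a neutrophil-attracting chemokine, measured 5.61, 5.66, 5.34, 6.44, 5.72 and 5.69 in the tumors, against 11.98, 11.46 and 12.22 in the wild type glands. Cxcl1, a chemokine of the same kind, was 7.53 to 8.11 in the tumors and 12.51 to 13.17 in the wild type glands. The groups stayed apart by more than 4 log2 units in each of these genes, F1_26T1 included.

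The upstream sequences of these genes are shown because they had among the largest decreases. Each run holds the 250 bases before the gene start in RefSeq on GRCm38.p6, read 5′ to 3′, with capitals marking GGGNNNTTCC, a form of the NF-kB motif, on either strand.
Il6, chr5:30012864-30013113, + strand: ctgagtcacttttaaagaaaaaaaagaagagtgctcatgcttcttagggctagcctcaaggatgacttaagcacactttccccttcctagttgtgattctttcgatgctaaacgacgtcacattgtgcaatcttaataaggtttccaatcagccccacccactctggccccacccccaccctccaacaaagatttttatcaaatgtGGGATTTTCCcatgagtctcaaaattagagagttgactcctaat
Cxcl1, chr5:90890995-90891244, + strand: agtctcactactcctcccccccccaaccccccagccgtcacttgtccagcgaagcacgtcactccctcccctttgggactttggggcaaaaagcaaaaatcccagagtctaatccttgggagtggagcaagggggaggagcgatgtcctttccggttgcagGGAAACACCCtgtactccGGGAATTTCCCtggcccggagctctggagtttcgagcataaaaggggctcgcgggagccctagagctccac
Cxcl2, chr5:90903649-90903898, + strand: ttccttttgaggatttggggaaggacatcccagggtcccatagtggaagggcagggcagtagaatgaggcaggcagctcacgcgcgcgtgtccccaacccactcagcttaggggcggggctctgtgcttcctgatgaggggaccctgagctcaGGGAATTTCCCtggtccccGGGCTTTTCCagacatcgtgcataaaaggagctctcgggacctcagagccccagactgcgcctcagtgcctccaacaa
The match in Il6 began 44 bases before the gene start. Cxcl1 had a match at 89 bases on the opposite strand and a near-palindromic pair that overlap at 71 and 70 bases, and Cxcl2 had such a pair at 97 and 96 bases and a separate match at 78 bases. Of 32851 promoters of the same length, 1527 (4.65%) held the motif, and of 14 promoters of the inflammatory list 7 did. These belonged to 6 of the 13 genes with a promoter sequence, the others being Cxcl3, Nfkbia and Tnfaip3. The list was chosen with earlier results known and holds genes induced by NF-kB, so its share is not a test. A match is a run of letters and not a measured binding site.

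The same list held Ptgs2, the inducible cyclooxygenase, which was 6.44 to 8.21 in the tumors and 12.22 to 12.40 in the wild type glands (difference -5.27, adjusted p = 9.88e-06). Ccl2 and Ccl3, chemokines for monocytes, were lower (-4.60 and -4.51). Nfkbia and Tnfaip3, which restrain NF-kB and are induced by it, were lower (-2.87 and -4.04), as were the cytokines Il1b and Tnf (-2.92 and -2.87). The 2 genes not called were Osm (adjusted p = 0.0224) and Cxcl5. Cxcl5 was 8.21 in F1_26T1, 5.43 to 6.46 in the other tumors and 6.82 to 8.39 in the wild type glands, and was called lower without F1_26T1. Tnfaip6, a hyaluronan-binding protein, had a difference of -5.19. Beyond the list, the large decreases took in Gem, a small GTP-binding protein (-5.91), Ptx3, a secreted pentraxin (-4.77), Ifi205, an interferon-inducible gene (-4.48), and Adamts1, a secreted protease (-4.32). In Gem, Ptx3, Ifi205, Adamts1 and Tnfaip6 every tumor was below every wild type gland, an order shared by 5906 of all 35556 probe sets.

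Immediate early genes and heat shock genes were lower as well. Of 19 immediate early genes 12 were called lower, with a median of -2.07. Fosb, an AP-1 subunit, measured 6.81 to 7.34 in the tumors and 10.76 to 12.02 in the wild type glands (difference -4.29, adjusted p = 4.32e-06). Fos, Jun, Egr1 and Atf3, further factors of this early response, were lower (-2.70, -2.31, -2.57 and -4.28). So were the phosphatase Dusp1 (-3.20), Klf6, a zinc finger factor (-2.52), and Zfp36, which destabilizes cytokine mRNA (-2.40). Klf4, a related factor, was 8.93 in F1_26T1, against 6.57 to 7.22 in the other tumors and 8.90 to 9.53 in the wild type glands. Myc differed by -0.86 (adjusted p = 0.00765) and met neither limit of the call.

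Of 11 heat shock genes, 8 were called lower. Hspa1a, the inducible HSP70, measured 7.66, 7.61, 7.46, 8.18, 8.59 and 8.01 in the tumors, against 12.47, 12.61 and 12.93 in the wild type glands. Every tumor was at least 3.89 below every gland (log2 difference -4.75 ± 0.24, adjusted p = 2.2e-06). Hspa1a has a near-identical copy, Hspa1b, from which the array may not separate it. Hsph1, Dnajb1, Hspb1 and Bag3, which act with or beside HSP70, were lower (-3.38, -2.89, -3.50 and -2.47). Hspa8, the constitutive HSP70, differed by -0.32 (adjusted p = 0.0267).

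High levels of these 3 groups were found in the transgenic glands too. In the F1 MMTV-ErbB2 glands Il6 was 12.73 and 11.84, Fos 11.28 and 11.18, and Hspa1a 12.57 and 12.44. The summed signal of the inflammatory list was 11.25 to 12.08 in the tumors, 16.39 and 16.14 in the F1 MMTV-ErbB2 glands and 15.58 to 15.86 in the wild type glands. For the immediate early list the sums were 13.24 to 13.71 in the tumors, 15.60 in both F1 MMTV-ErbB2 glands and 15.15 to 15.62 in the wild type glands. The 3 groups of genes therefore separated tumors from glands of either genotype. Lymphocyte markers and some stromal markers were lower as well, while no macrophage or neutrophil gene was called, as follows. The part of these cell types in the differences was not tested.

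**Figure D3:**
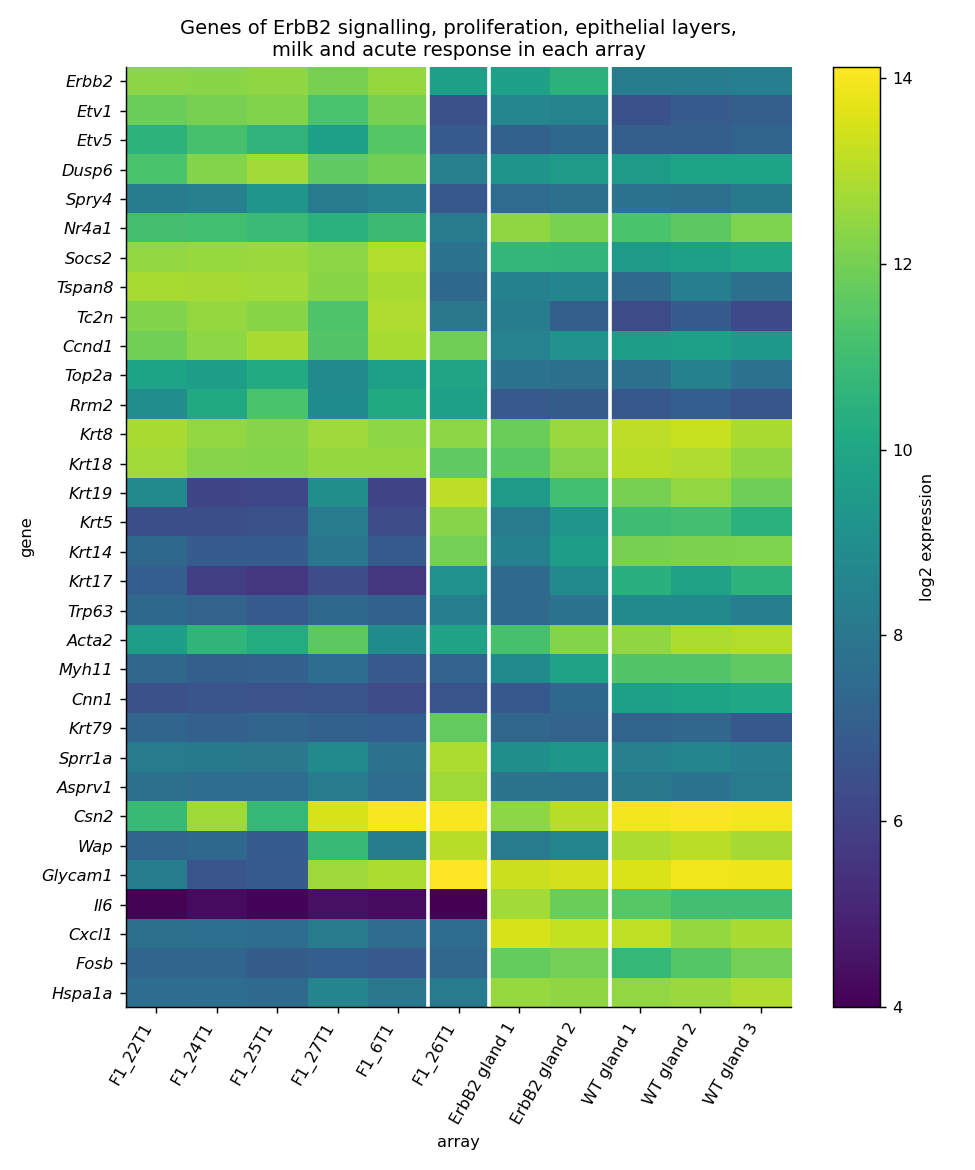
Log2 RMA signal (colour) of 32 genes (rows) in 11 arrays (columns): 6 tumors, 2 F1 MMTV-ErbB2 glands and 3 wild type glands. Il6 runs from 3.99 to 4.45 across the tumors, and F1_26T1 departs from the other tumors at Erbb2, Etv1, Krt5 and Krt14.

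Lymphocyte markers were lower in the tumors. Of 7 T cell genes 6 were called lower, and the summed signal of the list was 9.33 to 9.54 in the tumors and 10.67 to 11.63 in the wild type glands. Cd2, an adhesion molecule of T cells, was 6.35 to 6.76 in the tumors and 8.09 to 9.41 in the wild type glands. Cd3e and Cd8a, the T cell receptor chain and coreceptor, were lower (-1.59 and -2.02). In the B and plasma cell list 3 of 8 were called lower, among them Cd79a and Blk, a receptor subunit and a kinase of B cells (-1.90 and -1.91). The B and plasma cell sum was 9.18 to 9.96 in the tumors and 10.35 to 11.29 in the wild type glands. MHC class II genes, with 2 of 6 called lower (H2-Eb1 and the invariant chain Cd74, -1.63 and -1.93, lost without any 1 gland), had sums of 11.06 to 12.76 in the tumors and 13.46 to 13.82 in the wild type glands.

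Macrophage genes did not follow. None of 11 was called, 8 had a positive difference, and their sum was 11.84 to 14.32 in the tumors and 12.60 to 12.90 in the wild type glands. No neutrophil gene was called in either direction over 6 tumors (sums 9.13 to 10.09 in the tumors and 9.81 to 9.95 in the wild type glands). Of 7 mast cell genes 2 were called lower. One of them, the mast cell protease Mcpt4, was 5.99 to 7.22 in the tumors, 11.27 and 10.86 in the F1 MMTV-ErbB2 glands and 7.87 to 8.19 in the wild type glands, so that the transgenic glands stood apart from both other groups; its call was lost without any 1 wild type gland.

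All 17 fibroblast and matrix genes had a negative difference (median -1.18), and 3 were called lower. Lum, a collagen-binding proteoglycan, measured 5.67 to 8.36 in the tumors and 10.33 to 10.67 in the wild type glands (difference -3.44, adjusted p = 0.00077), a call lost without wild type gland 3. Pdgfra, a receptor of stromal cells (-2.49), and Thy1, a surface protein of fibroblasts (-1.73), were the others, and Thy1 was not called without wild type gland 1 or 3. Among 13 matrix metalloproteinases and inhibitors, Mmp3, Mmp2 and Timp2 were called lower (-3.46, -2.21 and -2.31). Of 12 endothelial genes 4 were called lower, including Pecam1, Cdh5 and Cldn5, junction proteins of vessels (-1.97, -2.10 and -1.87). Mmp2, Timp2, Pecam1 and Cdh5 lost the call without any 1 gland, and Timp2 and Cdh5 also without F1_22T1, F1_24T1 or F1_6T1. F1_27T1 was the tumor nearest to the glands in these lists, with sums of 15.07 for fibroblast genes and 12.50 for endothelial genes, against 15.13 to 15.53 and 12.62 to 13.06 in the wild type glands. No adipocyte or skeletal muscle gene was called. The highest sums of both lists were those of F1_22T1, where the adipocyte enzyme Car3 was 12.47 and the muscle genes Acta1 and Ckm were 10.45 and 10.32, while Car3 was 6.93 to 8.77 and Ckm 7.51 to 7.80 in the wild type glands. In the Schwann cell list, myelin basic protein Mbp was lower (-1.28), and Sox10, also a factor of mammary epithelium, was 0.97 higher and passed 2-fold without F1_26T1.

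Interferon response genes had no common direction. Irf7, the master factor of the type I response, was 9.34 to 11.75 in the tumors, highest in F1_6T1, and 7.25 to 8.04 in the wild type glands (difference 2.41, adjusted p = 0.00373). Ifit2 and Rsad2, antiviral effectors of the same response, were lower (-2.76 and -2.51). Irf7 and Rsad2 lost the call without any 1 gland, and Irf7 also without F1_22T1 or F1_25T1. The other 7 of 10 genes were not called. The shares over all genes were 7.54% called higher and 4.11% lower.

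The comparison was repeated without F1_26T1, the tumor with low Erbb2. The count rose to 4115, with 3455 probe sets called in both fits and 660 gained. Of genes, 1737 (8.71%) were called higher and 965 (4.84%) lower. Among the lists 27 genes gained a call, 8 higher and 19 lower, and 4 lost one (Bub1, Elf5, Xdh and the T cell gene Cd3d). The gains higher in tumors included Etv1, Etv5 and Dusp6, so that 4 of 14 ERK output genes were then called higher. The gains lower in tumors included Krt5, Krt14 and Trp63 of the basal list, Krt19 and the E-cadherin gene Cdh1 of the luminal list, and Wap.

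F1_26T1 was then placed on a scale fixed by the other arrays, on which the wild type glands have a mean of 0 and the other 5 tumors a mean of 1, over the probe sets called without it. Its median position was 0.817, with a lower quartile of 0.578, and 808 of 4115 probe sets (19.6%) lay under 0.5, nearer to the glands. The same measure, each tumor against its own other 5, gave medians of 0.998, 1.03, 1.05, 0.871 and 1.09 for F1_22T1, F1_24T1, F1_25T1, F1_27T1 and F1_6T1, with 1.61% to 8.16% under 0.5. On the calls of all 6 tumors the 2 F1 MMTV-ErbB2 glands had medians of 0.216 and 0.118. F1_26T1 thus lay with the tumors over most called probe sets, and was nearer to the gland mean in 381 of the 1655 lower in tumors and 427 of the 2460 higher.

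**Figure D4:**
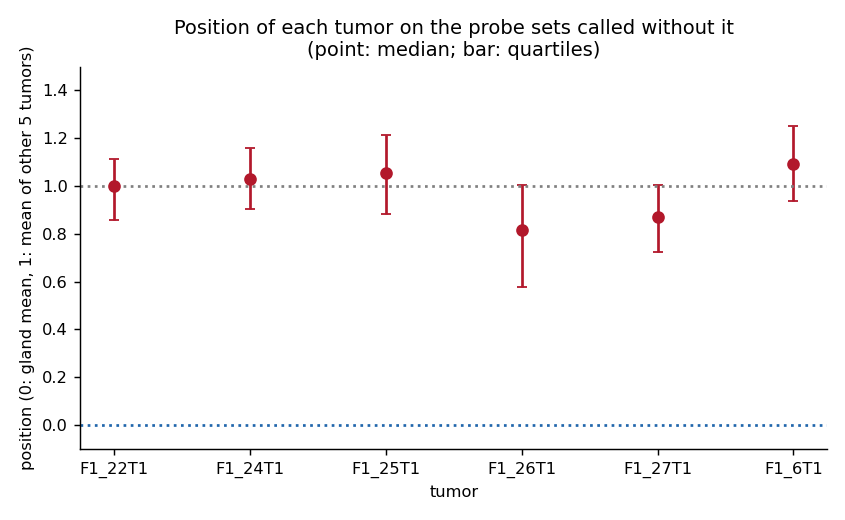
Position (vertical axis) of each F1 tumor (horizontal axis) between the mean of the wild type glands (0) and the mean of the other 5 tumors (1). Each tumor is placed over the probe sets called without it, with points for medians and bars for quartiles. F1_26T1 has the lowest median, 0.817.

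The gene lists differed in where F1_26T1 lay. Of genes called without it, it was under 0.5 for 3 of 5 ERK output genes, 5 of 7 luminal genes and 5 of 10 basal genes, but for 0 of 10 proliferation genes and 1 of 18 inflammatory genes. Some genes outside the lists, chosen after their values were seen, followed the same split. Socs2, a suppressor of cytokine signalling, was 7.87 in F1_26T1, 12.40 to 12.96 in the other tumors and 9.52 to 10.01 in the wild type glands. Chrm3, a muscarinic receptor, was 6.62 in F1_26T1, 10.94 to 11.90 in the other tumors and 6.71 to 7.32 in the wild type glands. Other genes were high in F1_26T1. Sprr1a, of the cornified envelope, was 12.89 there, 7.83 to 8.83 in the other tumors and 8.34 to 8.62 in the wild type glands, and Asprv1, a protease of the outer skin layers, was 12.68 there, 7.60 to 8.18 in the other tumors and 7.83 to 8.15 in the wild type glands. Its correlation with the other tumors over all probe sets was 0.955 to 0.964, against 0.970 to 0.980 among those 5 and 0.894 to 0.940 between tumors and wild type glands.

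A comparison that shares no array with this one set 20 F1BX tumors, from mice of the backcross to FVB, against 5 MMTV-ErbB2 glands, 2 of them F1 and 3 FVB. It differs in background and in the genotype of the glands, and 1 of its glands stood apart: FVB MMTV-ErbB2 gland 3 had an interquartile range of 1.86 and a median of 7.40, against 2.32 to 2.36 and 7.17 to 7.21 in the other 4 glands. Of genes, 1880 (9.43%) were called higher and 1033 (5.18%) lower. Of the 3608 probe sets called in the F1 comparison, 3586 had the same direction there and 2376 were called again, which is 65.9% of the F1 calls and 55.8% of the 4258 F1BX calls. The 22 with the opposite direction included none that was called. The F1BX comparison called 4258 of all 35556 probe sets. How many of all probe sets had the same direction in both comparisons was not computed. Il6 differed by -6.79 there, Hspa1a by -4.44, Scd2 by 3.63 and Ccna2 by 2.30, beside -7.03, -4.75, 4.09 and 2.22 in the F1 comparison. Etv1, Etv5 and Dusp6 were called higher (3.83, 3.35 and 2.87), and 15 of 19 proliferation genes, 18 of 19 inflammatory genes and 8 of 11 fatty acid genes were called, all in the directions given above. Without FVB MMTV-ErbB2 gland 3, 1512 genes (7.58%) were called higher and 1234 (6.19%) lower. Of the F1 calls, 3569 then had the same direction, 39 the opposite one with none called, and 2199 were called again. Il6, Hspa1a, Scd2, Ccna2, Etv1, Etv5 and Dusp6 kept their calls, and 14 proliferation genes, 18 inflammatory genes and 7 fatty acid genes were called.

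Basal genes differed less between those groups. The median of the basal list was -0.66 in the F1BX comparison and -2.63 in the F1 comparison, with 3 and 6 genes called lower. Without FVB MMTV-ErbB2 gland 3 the F1BX median was -0.43 and 1 gene was called. The tumors had like levels, as Myh11 had a median of 7.11 over the F1BX tumors and a mean of 7.19 ± 0.28 over the F1 tumors, whereas the F1 MMTV-ErbB2 glands measured 8.80 and 9.85 and the wild type glands 11.38 to 11.65. Cnn1 was 6.77 and 7.38 in the F1 MMTV-ErbB2 glands and 9.71 to 10.01 in the wild type glands. Other lists differed between the comparisons as well. The luminal list had a median of 0.67 in the F1BX comparison, with 6 genes called higher and none lower. In the F1 comparison its median was -0.24, with 2 higher and 1 lower. Milk genes had medians of -0.03 in the F1BX and -0.97 in the F1 comparison, and 5 and 2 mast cell genes were called lower. None of the differences between the comparisons or between the gland genotypes was tested.

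**Figure D5:**
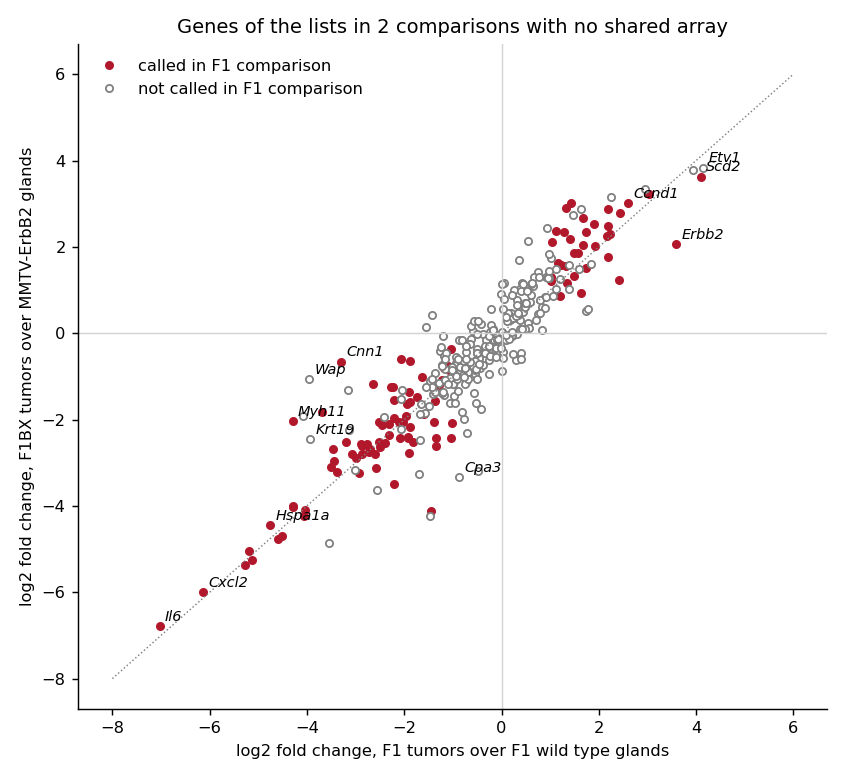
Log2 difference of the genes of the lists in 2 comparisons that share no array: 6 F1 tumors minus 3 F1 wild type glands (horizontal axis) and 20 F1BX tumors minus 5 MMTV-ErbB2 glands (vertical axis), with the dotted line where both are equal. Il6 lies near the line at -7.03 and -6.79, and Myh11 above it at -4.30 and -2.03.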

How the data were processed

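Mammary RNA of 222 samples was measured on Affymetrix mouse gene arrays. The deposited values are log2 signals that the authors made with RMA (version not stated). RMA fits arrays together, and the spread of values divides the series into 2 sets, so the comparison was kept to 9 arrays of 1 set. Array number limits the precision, and no depth applies. Groups came from labels and sample names. The members and gene lists were chosen with earlier results of these data known.

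The 6 tumors and 3 wild type glands were fitted with limma 3.58.1 (lmFit and eBayes, R 4.3.3) over 35556 probe sets with Benjamini-Hochberg adjustment. Calls needed a false discovery rate of 0.005 or less with a fold of 2 or more, the thresholds of the study's methods, and the script was tested on simulated data. Where a gene had several probe sets, that with the highest mean stood for it; probe sets with several gene symbols named none. The text names Erbb2, the 12 genes with the largest called change in each direction (predicted genes left out), genes of the 30 lists (340 of 367 listed genes were measured), and a few said to be chosen after their values were seen. A list's summed signal is the log2 of its genes' summed linear signals. Alternatives were SAM, quantile normalization, median centring, a filter on low signal, other fits and thresholds, and each array left out.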

Additional observations from a re-analysis of the deposited data

Results flagged for a closer look

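Within the 6 F1 tumors, a gene was marked when 1 tumor's gap to its nearest neighbour, as a share of the whole range of the 6, exceeded the critical value of Dixon's test, a limit that chance passes in about 1 in 20 groups. F1_26T1 was the tumor set apart for most of the marked genes; Krt79, Muc4, Asprv1, Sprr1a, Saa2, Elapor1, Socs2 and Chrm3 were chosen after their values were seen, and the low Erbb2 of F1_26T1 is what the repeat without it was chosen on. As the highest tumor its gap was 0.944 for Krt79, 0.888 for Muc4, 0.886 for Asprv1, 0.829 for S100a8, 0.802 for Sprr1a, 0.782 for Krt14, 0.751 for Saa2, 0.723 for Klf4, 0.689 for Krt5, 0.658 for Cxcl2, 0.629 for Cdh3 and 0.629 for Cxcl5. As the lowest tumor its gap was 0.911 for Tspan8, 0.905 for Elapor1, 0.891 for Socs2, 0.825 for Erbb2, 0.825 for Etv1, 0.818 for Chrm3, 0.81 for Egfr, 0.788 for Clic6, 0.769 for Nr4a1, 0.684 for Tc2n, 0.676 for Sox10, 0.663 for Aldoc, 0.662 for Dusp6 and 0.635 for Epcam. Over all 35556 probe sets F1_26T1 was the tumor set apart in 1027 (2.89%), while any tumor was in 2734 (7.69%) and each other tumor in 186 to 487.

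F1_22T1 was the highest tumor for genes of muscle and fat, with gaps of 0.905 for Ckm, 0.863 for Myh4, 0.812 for Acta1, 0.77 for Adipoq and 0.756 for Cidea. F1_27T1 was the highest for genes of vessels, fibroblasts and macrophages and for a pair of chemokines, with gaps of 0.834 for Thy1, 0.83 for Pecam1, 0.724 for Cd68, 0.722 for Ccl2, 0.722 for Cdh5 and 0.652 for Cxcl1. F1_25T1 was the lowest for Pik3r1 (gap 0.694) and F1_6T1 for Cdk4 (gap 0.68).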

How the results depend on the processing

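Leaving out each array other than F1_26T1 in turn gave 2288 to 3617 called probe sets, 1317 to 2157 of them higher and 971 to 1460 lower, the fewest without wild type gland 3. Without F1_26T1 there were 4115, with 2460 higher and 1655 lower. The log2 difference of Erbb2 was 3.47 to 3.62 over the fits that left out 1 array and kept F1_26T1. It was 3.62 without wild type gland 3, with an adjusted p of 0.005038 that missed the threshold. With the F1 MMTV-ErbB2 glands added to the wild type glands it was 2.86, and with arrays weighted in the fit 3.77. The other alternatives that kept F1_26T1 gave 3.50 to 3.65. An adjusted p under 0.05 with no fold limit gave 11958 calls, 6111 higher and 5847 lower, and only probe sets with 1 gene symbol, an alternative chosen after seeing the data, gave 934 lower. The other alternatives of the F1 comparison gave 2589 to 4455 calls. Median centring called 2452 higher and 1252 lower, and quantile normalization 2044 and 1633. Of the genes described by a change, none reversed under any alternative, 95 to 123 kept their side of the threshold without a gland or a tumor, and all but 2 did under SAM. In the F1BX comparison, leaving out FVB MMTV-ErbB2 gland 3, also chosen after seeing the data, gave 4006 calls, beside 4258 with it. No paired analysis was possible because the tumors came from transgenic mice and the glands from wild type mice.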

Other observations

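A pair of the F1 tumors carries a number that also occurs among the 22 other F1 tumors of the series, which belong to the set with the wide spread of values. After each set was centred, F1_6T1 and F06T1 correlated at -0.0682, the 14th of 22 in order, and F1_27T1 and F27T1 at -0.131, the 19th of 22. The labels do not say whether the shared numbers mark the same animals.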
